A study of Mus musculus with 78 samples.

Results

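The clock activators Arntl (which encodes BMAL1), Npas2 and Clock, together with the nuclear receptor genes Nr1d2 (Rev-erb beta) and Rora, were followed in mouse lung over the 9 groups of treatment and hour. These 5 genes of 18820 with a symbol of their own on the array were chosen by name, from the probe sets annotated with that 1 symbol, and where a gene had several, the probe set with the highest mean over the 78 arrays was taken. Only Nr1d2 had a second probe set, at a mean log2 intensity of 3.64 against 9.77 for the one used. The mice were young adult C57BL/6 J males, all fed only in the dark for the weeks before the study. The sleep-deprived (SD) mice were kept awake by gentle handling from lights on and taken after 3, 6, 9 and 12 h (9, 9, 9 and 8 mice). The sleeping (SS) mice were left undisturbed and taken at the same 4 hours (9, 7, 9 and 9 mice), and 9 baseline mice were taken at lights on (0 h). Each mouse gave 1 array of total lung RNA on the Affymetrix Mouse Gene 1.0 ST platform. Handling was part of deprivation, so sleep loss and handling cannot be told apart. In whole lung, fewer cells of a type and less RNA per cell cannot be told apart either.

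BMAL1 pairs with CLOCK, or with its paralogue NPAS2, and the pairs bind E-boxes to switch on the Period, Cryptochrome and Rev-erb genes, whose products turn the activators off. In a second loop, ROR receptors such as RORA activate and REV-ERB receptors repress Arntl, Npas2 and Clock through the same short element, a core of AGGTCA. In peripheral tissues of mice, the transcripts of the activators and of the Rev-erb genes therefore peak at opposite phases of the day.

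The promoter sequences are shown because the receptors and their targets share this element. They come from RefSeq (mouse build GRCm38.p6), whose table held all 5 genes with 8 promoters between them (2 for Arntl, 3 for Clock and 1 for each of the other genes), each with 250 bases before and 50 after a start site. For Npas2, Arntl and Nr1d2, the genes whose levels moved most, the 250 bases before 1 start site follow, 5′ to 3′ on the gene's strand, with any AGGTCA in capitals. They lie at chr1:39194022-39194271 (plus strand), chr7:113207261-113207510 (plus strand) and chr14:18239107-18239356 (minus strand).
Npas2: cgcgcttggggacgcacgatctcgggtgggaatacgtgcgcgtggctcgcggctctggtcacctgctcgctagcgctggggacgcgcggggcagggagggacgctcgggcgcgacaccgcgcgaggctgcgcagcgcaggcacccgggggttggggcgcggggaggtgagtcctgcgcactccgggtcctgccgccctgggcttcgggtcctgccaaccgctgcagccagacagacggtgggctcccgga
Arntl: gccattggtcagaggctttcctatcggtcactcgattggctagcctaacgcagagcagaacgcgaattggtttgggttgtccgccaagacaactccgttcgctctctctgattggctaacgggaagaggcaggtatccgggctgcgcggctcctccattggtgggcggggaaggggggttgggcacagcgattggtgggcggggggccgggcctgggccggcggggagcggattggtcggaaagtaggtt
Nr1d2: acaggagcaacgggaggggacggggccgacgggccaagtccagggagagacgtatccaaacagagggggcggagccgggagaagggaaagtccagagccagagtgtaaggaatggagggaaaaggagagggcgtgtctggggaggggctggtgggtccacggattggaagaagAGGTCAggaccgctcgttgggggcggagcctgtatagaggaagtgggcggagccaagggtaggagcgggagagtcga
Nr1d2 held AGGTCA 77 bases before its start, and the Npas2 and Rora promoters held none on either strand. In Arntl the element, with the T that lengthens it to TAGGTCA, began 30 bases after the start that the stretch above leads to. In Clock it lay on the opposite strand, 119 bases before 1 of the 3 starts, and so reads TGACCT on the gene's strand. The 30 bases about these 2 matches are at chr7:113207530-113207559 (plus strand) and chr5:76303603-76303632 (minus strand), with the matched bases in capitals.
Arntl: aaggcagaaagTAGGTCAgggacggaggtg
Clock: gctttggcctcTGACCTgacagatgacaga
AGGTCA on either strand was found in 16.3% of all 32851 promoters in the table and TAGGTCA in 2.61%. Neither the E-box CACGTG (7.15% of promoters) nor the D-box TTATGTAA (0.938%) was found in any of the 8 promoters. A match is a string of letters and not a bound site.

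Values were log2 intensities. Array medians lay between 6.45 and 6.78, no 2 arrays were identical, and the number of mice limits the precision. Markers of alveolar type 2 cells, alveolar type 1 cells and endothelium had group means of 12.31 to 12.39, 11.40 to 11.47 and 11.96 to 12.08, each summed up as the mean of its 4 or 5 genes. Other lists moved more: B cell markers ran from 8.40 (9 h SD) to 9.77 (3 h SS), T cell markers from 7.25 to 7.95, NK cell markers from 6.29 to 7.11 and neutrophil markers from 7.32 to 8.41. The brown fat list (7.58 to 9.05), the cardiac list (11.25 to 11.63) and the liver list (5.90 to 7.85), not expected in lung, differed between groups too. Single arrays ran wider, from 5.98 to 11.14 for brown fat, 10.91 to 12.44 for cardiac muscle and 5.34 to 12.00 for liver. The part of these lists in the results below was not tested. The array numbers in the titles also raised doubt. When the order of conditions in the labels was laid along these numbers, 15 arrays fell on the condition of another group. Arrays 80 and 81 lay past the end of that order. Of these, array 81 (labelled 12 h SD) was counted with the 15, and array 80 was not, as its label, 6 h SS, is the condition with which the order ends. Which arrays these are rests on keeping places for the absent numbers 37 and 42 and none for 9. Conditions were used as labelled, and the comparisons of the 5 genes are also given without the 16 arrays, over the other 62, except where a sentence says that it is over the 78 arrays or as labelled.

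The levels of the 5 genes were set beside this doubt. All 15 arrays whose number fell on another group had an Nr1d2 level closer to the mean of that group than to the mean of the labelled one, both means taken over the 62 arrays. The same held for 14 of 15 for Arntl, 14 for Npas2, 13 for Clock and 6 for Rora. Some of these counts rest on means that lie close together. For Nr1d2 on array 20 (10.3823) the means were 10.3155 for the labelled group and 10.3175 for the other. On array 28 the Nr1d2 value of 10.3124 lay almost midway between 10.40 and 10.23. Such counts were not taken over other probe sets, and the cause was not tested. Array 36, labelled baseline, had an Arntl level of 5.80, against 9.24 to 9.51 in the 7 baseline mice outside the 16. Array 66, labelled 6 h SS, had an Npas2 level of 9.61, against 7.13 to 7.40 in the 6 other mice of its group. Of the 16 arrays, 13 lay outside the range that the mice among the 62 arrays spanned in the same labelled group for Arntl, 12 for Npas2, 12 for Nr1d2, 11 for Clock and 8 for Rora.

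Npas2, the paralogue of Clock that also pairs with BMAL1, fell over the light phase in both states. At 12 h, the lowest, median and highest log2 intensities were 6.62, 6.99 and 7.20 in SD mice and 6.54, 9.89 and 10.08 in baseline mice. In SS mice at 12 h they were 6.18, 6.49 and 6.73. Array 36 was the only baseline mouse not above both 12 h ranges, and among the 62 arrays baseline and 12 h did not meet. Relative to baseline, Npas2 changed by −2.55 (SE 0.32, limma adjusted p = 1.87e-07) in SD mice and by −3.07 (SE 0.31, limma adjusted p = 2.69e-11) in SS mice. Without the 16 arrays the changes were −2.96 (SE 0.10) and −3.50 (SE 0.09) in SD and SS mice.

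Arntl fell alongside it. At 12 h its lowest, median and highest values were 6.25, 6.54 and 7.51 in SD mice and 5.80, 9.33 and 9.51 in baseline mice. In SS mice at 12 h they were 5.45, 5.75 and 6.22. Array 36 again was the only baseline mouse not above both 12 h ranges. The change was −2.24 (SE 0.30, limma adjusted p = 5.79e-07) in SD mice and −3.09 (SE 0.29, limma adjusted p = 4.38e-12) in SS mice, and −2.72 and −3.59 without the 16 arrays.

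Clock, which encodes the usual partner of BMAL1, moved less. Its lowest, median and highest values at 12 h were 9.98, 10.16 and 10.25 in SD mice and 9.86, 10.61 and 10.66 in baseline mice. In SS mice at 12 h they were 9.69, 9.89 and 10.04. Outside the 16 arrays every 12 h mouse of either state lay below the lowest baseline mouse, at 10.57. The change was −0.36 (SE 0.07, limma adjusted p = 0.000279) in SD mice and −0.63 (SE 0.07, limma adjusted p = 1.86e-10) in SS mice, and −0.47 and −0.77 without the 16 arrays.

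Nr1d2, whose product represses the activators, went the other way. At 12 h its lowest, median and highest values were 10.14, 10.20 and 10.47 in SD mice and 7.57, 8.06 and 10.38 in baseline mice. In SS mice at 12 h they were 10.15, 10.37 and 10.43. The 7 baseline mice outside the 16 arrays reached no higher than 8.42. Nr1d2 rose by 1.93 (SE 0.21, limma adjusted p = 4.71e-09) in SD mice and by 2.02 (SE 0.21, limma adjusted p = 2.32e-11) in SS mice, and by 2.32 and 2.41 without the 16 arrays. Its dim second probe set passed in no comparison (SD 0.04, SE 0.07; SS 0.14, SE 0.07, both at 12 h against baseline).

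Rora, the activating receptor, rose a little. At 12 h its lowest, median and highest values were 9.77, 10.10 and 10.18 in SD mice and 9.58, 9.69 and 10.03 in baseline mice. In SS mice at 12 h they were 9.97, 10.07 and 10.12. The ranges overlapped as labelled and not among the 62 arrays. The rise was 0.32 (SE 0.06, limma adjusted p = 0.000206) in SD mice and 0.35 (SE 0.06, limma adjusted p = 1.37e-05) in SS mice, and 0.42 and 0.38 without the 16 arrays.

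All 5 genes thus passed at 12 h against baseline in both states, where 3.54% of all probe sets passed in SD mice and 4.17% in SS mice (6.45% and 6.85% without the 16 arrays). Both states were set against the same baseline mice, and the threshold throughout was an adjusted p under 0.01 over all 35556 probe sets. Arrays numbered 36 to 66 formed a run holding the baseline mice and 3 h and 6 h mice of both states, and 9 h and 12 h mice lay in earlier runs. Run and hour therefore cannot be told apart across 6 h to 9 h or from baseline to 12 h. Within the run of the baseline mice, without the 16 arrays, Npas2 at 6 h differed from baseline by −2.11 in SD mice and −2.70 in SS mice (4 mice each, against 7), Arntl by −1.72 and −2.21, and Clock by −0.26 and −0.34. Nr1d2 differed there by 2.11 and 2.23, and Rora by 0.11 and 0.18, in SD and SS mice. These within-run values were not tested.

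**Figure D1:**
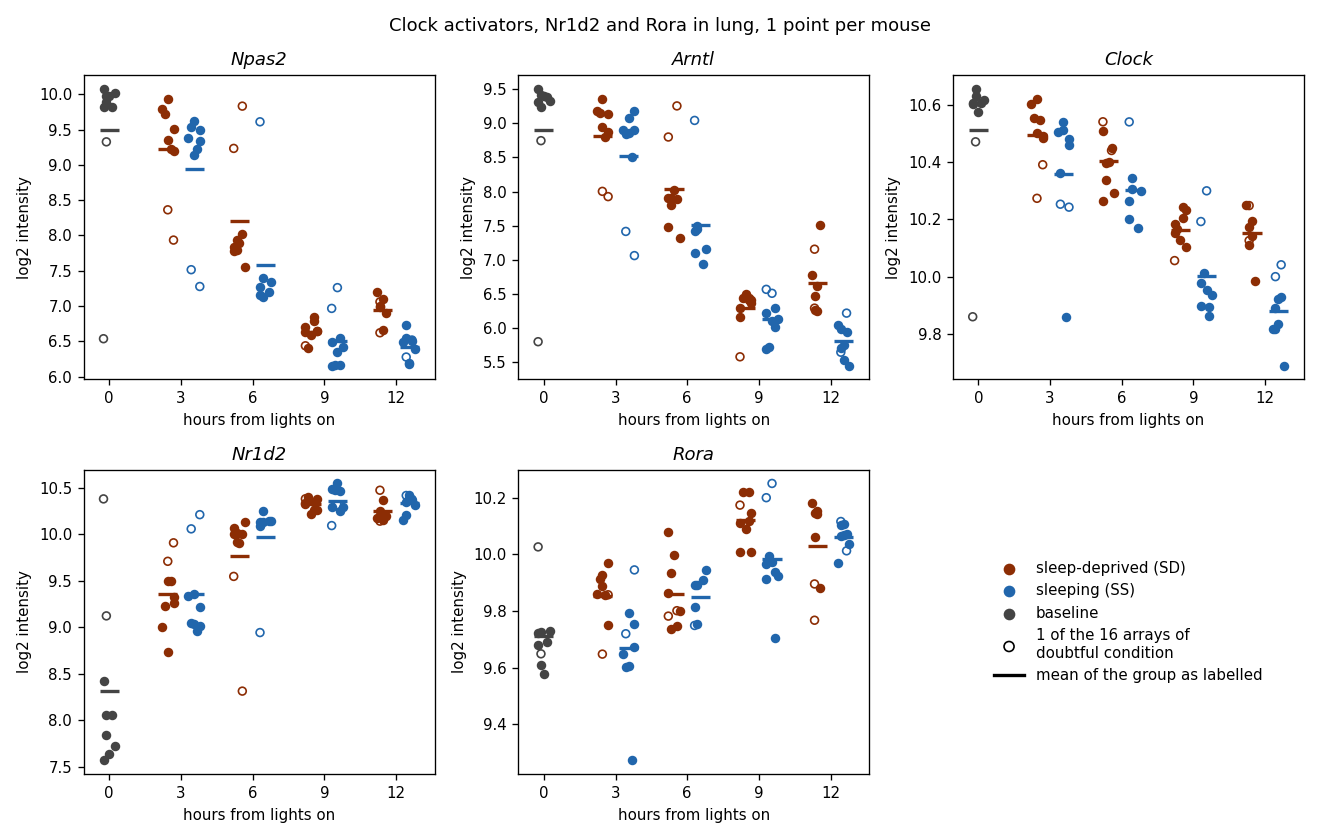
Log2 intensity of each gene (vertical axes) against hours from lights on, 1 point per mouse, with SD mice left of SS mice at each hour, open points for the 16 arrays of doubtful condition and bars for the mean of each group as labelled. Open points lie far from the filled points of their own group for Npas2, Arntl and Nr1d2, such as array 36 at 0 h with an Arntl level of 5.80.

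The time courses are given first over the 62 arrays, as the geometric mean in percent of baseline. In SD mice Npas2 stood at 75.4, 23.2, 10.3 and 12.8% of baseline at 3, 6, 9 and 12 h. In SS mice it stood at 68.4, 15.5, 8.21 and 8.81%. The largest step of these arrays lay between 3 h and 6 h (as labelled, that from 6 h to 9 h was larger in SD mice), and the ranges of these hours did not meet in either state (9.20 to 9.93 at 3 h and 7.56 to 8.02 at 6 h in SD mice, 9.14 to 9.63 and 7.13 to 7.40 in SS mice). As labelled, with the 16 arrays in, the SD values were 83.0, 41.1, 13.8 and 17.1% and the SS values 68.6, 26.7, 12.6 and 11.9%.

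Arntl followed at 81, 32.9, 12.6 and 15.2% of baseline in SD mice. In SS mice it stood at 72, 23.2, 9.87 and 8.29%. Over the same arrays, its log2 means at 9 h and 12 h in SS mice were 6.03 and 5.78. Those of Npas2 were 6.33 and 6.43, and all of these lay below the lowest array median, 6.45. Whether a floor of the array limited such dim levels was not tested, so the percentages and state differences at these hours carry that limit. In SS mice the ranges of 0, 3, 6 and 9 h were all apart from the next (9.24 to 9.51, 8.51 to 9.18, 6.95 to 7.49 and 5.70 to 6.30), and in SD mice those of 3, 6 and 9 h were (8.80 to 9.36, 7.32 to 8.03 and 6.16 to 6.50). As labelled, the SD values were 94.4, 55.1, 16.4 and 21.2% and the SS values 77.1, 38.2, 14.8 and 11.7%.

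Clock declined by far less, to 95.2, 85.0, 73.9 and 72.1% of baseline in SD mice. In SS mice the levels were 85.6, 78.5, 62.4 and 58.6%. Nr1d2 stood at 250% of baseline at 3 h in SD mice, then at 429, 532 and 501%. In SS mice the Nr1d2 levels were 236, 474, 565 and 533%, so that both states had most of the increase by 6 h. Rora stayed between 115 and 136% of baseline in SD mice, with 115, 115, 136 and 134% over the 4 hours. In SS mice it was at 96.2, 114, 118 and 130%. With the arrays as labelled, Clock stood at 77.9% in SD and 64.5% in SS mice at 12 h, Nr1d2 at 382% and 406%, and Rora at 125% and 127%.

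**Figure D2:**
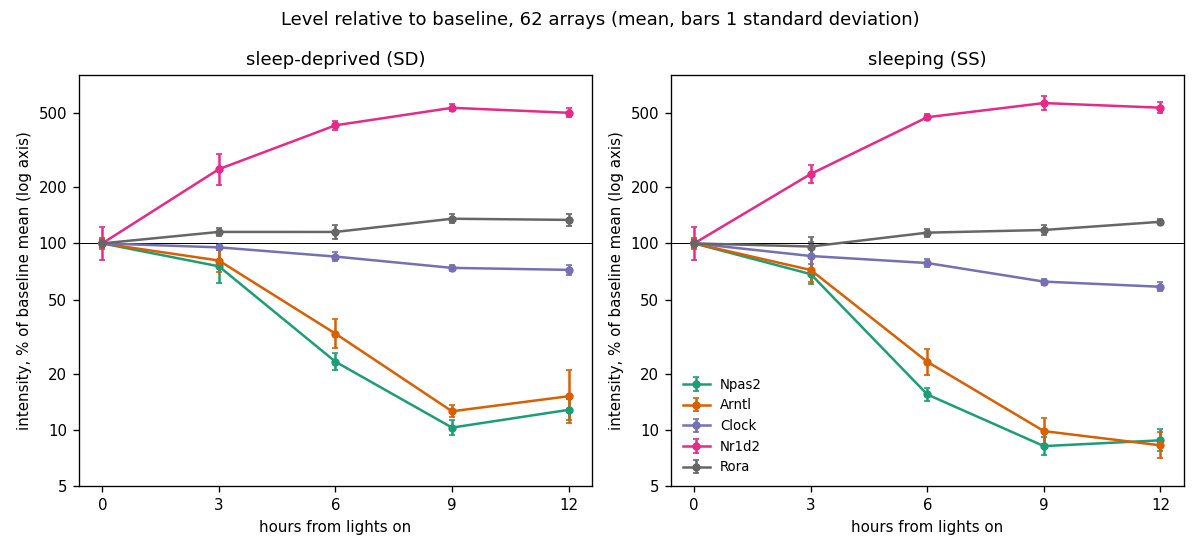
Geometric mean intensity in percent of the baseline mean (log axis) against hours from lights on for SD mice (left) and SS mice (right) over the 62 arrays, with bars of 1 standard deviation on the log2 scale. Npas2 and Arntl lie at 12.8 and 15.2% at 12 h in SD mice and at 8.81 and 8.29% in SS mice, and Nr1d2 lies at 501 and 533%.

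Step by step, few single intervals passed as labelled. In SD mice Nr1d2 rose from baseline to 3 h (1.04, SE 0.21, limma adjusted p = 0.000902), 1 of the 5 genes where 1.27% of probe sets passed. From 3 h to 6 h none of the 5 passed in limma (3 at an unadjusted p under 0.05), against 0.250% of probe sets. From 6 h to 9 h Arntl (−1.75, SE 0.29) and Npas2 (−1.57, SE 0.31) fell and Rora rose (0.26, SE 0.06), 3 of 5 where 4.61% passed. From 9 h to 12 h none passed in limma, and none had an unadjusted p under 0.05, against 0.0112% of probe sets.

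In SS mice, as labelled, only the fall of Arntl from 6 h to 9 h passed (−1.37, SE 0.31, limma adjusted p = 0.00718), with 0.723% of probe sets. It was lost without any 1 of 7 mice (arrays 11, 12, 13, 14, 66, 79 and 80), where the limma adjusted p reached 0.0329. In the other SS intervals none of the 5 passed in limma, with 2, 4 and 0 of them at an unadjusted p under 0.05 from 0 h to 3 h, 3 h to 6 h and 9 h to 12 h. The shares of all probe sets there were 0.0112%, 0% and 0.0141%. Nr1d2 from 0 h to 3 h (1.05, SE 0.21, limma adjusted p = 0.0143) passed once any 1 of arrays 36, 51, 56 and 66 was left out, with a limma adjusted p of 0.00752 or less.

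Without the 16 arrays the early hours passed in both states. From baseline to 3 h, Npas2 fell (−0.41, SE 0.09) and Nr1d2 rose (1.32, SE 0.09) in SD mice, where 2.86% of probe sets passed. In SS mice the same 2 genes passed (−0.55 and 1.24, SE 0.09 each), where 0.0956% did. From 3 h to 6 h, Arntl, Npas2 and Nr1d2 changed by −1.30, −1.70 and 0.78 in SD mice (1.57% of probe sets). In SS mice they changed by −1.63, −2.14 and 1.01 (0.321%), each with an SE of 0.13 or less.

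From 6 h to 9 h of the 62 arrays, Arntl (−1.38), Npas2 (−1.17) and Rora (0.24) passed in SD mice, where 3.46% of probe sets did. In SS mice Arntl (−1.23), Npas2 (−0.92) and Clock (−0.33) passed, where 0.520% did. From 9 h to 12 h none of the 5 passed in limma in either state, with 2 at an unadjusted p under 0.05 in each, although 2.47% of probe sets passed in SD mice and 2.46% in SS mice. The Npas2 fall to 3 h in SD mice was lost without array 68 or 69 (limma adjusted p up to 0.0126) and the Rora rise from 6 h to 9 h without any 1 of arrays 2, 47, 48 and 50 (up to 0.0132).

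The levels of each gene were also put in order over the 9 groups of the 62 arrays. For Npas2 the order ran from baseline (mean 9.94) through 3 h SD, 3 h SS, 6 h SD, 6 h SS, 12 h SD, 9 h SD and 12 h SS to 9 h SS (6.33). In it, 3 h SD and 3 h SS, and 12 h SS and 9 h SS, lay closer than the larger standard deviation of the pair, and all other neighbours lay farther apart. For Arntl, from baseline (9.37) to 12 h SS (5.78), the pairs within their spread were 3 h SD with 3 h SS and 12 h SD with 9 h SD. For Clock, from baseline (10.61) to 12 h SS (9.84), they were 3 h SD with 3 h SS, 3 h SS with 6 h SD, and 9 h SD with 12 h SD.

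Nr1d2 was highest at 9 h in SS mice (10.40) and lowest at baseline (7.90). Its neighbours 9 h SS, 12 h SS and 9 h SD were not apart by their spread, nor were 3 h SD and 3 h SS. Rora was highest at 9 h in SD mice (10.11) and lowest at 3 h in SS mice (9.62), and only 2 gaps in its order exceeded the spread, between 12 h SS and 9 h SS and between 6 h SS and baseline. As labelled, the standard deviations were wider, and only 2 gaps in the order exceeded them for Arntl, 1 for Npas2, 2 for Clock, 1 for Nr1d2 and 1 for Rora.

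Sleep-deprived and sleeping mice were then compared over all 4 hours together, without a term for time, which was the model of the study. None of the 5 genes passed in limma (1, Clock, at an unadjusted p under 0.05), where 5.59% of all probe sets did. The paper reports that Clock differed between the states in lung, higher with deprivation, at a p threshold of its own. Clock met that threshold here too before adjustment, and missed the adjusted threshold used here. Clock averaged 0.18 higher in SD mice (SE 0.05, limma adjusted p = 0.0122). It passed when any 1 of 13 mice was left out (limma adjusted p of 0.00574 to 0.00998), among them arrays 20, 28, 66 and 81 of the 16. Arntl (0.51, SE 0.28) and Npas2 (0.42, SE 0.28) had larger differences with limma adjusted p of 0.246 and 0.360. Nr1d2 (−0.10, SE 0.12) and Rora (0.07, SE 0.04) did not pass either.

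Over the 62 arrays, none of the 5 passed in limma (2, Clock and Rora, at an unadjusted p under 0.05), where 8.63% of probe sets did. Clock, at 0.21 (SE 0.06), had a limma adjusted p of 0.0101, and it passed when any 1 of 21 mice was left out. Arntl and Npas2 differed between the hours by several log2 units, and a term for time took that spread out. As run and hour go together across 6 h to 9 h, this term does not tell them apart. With time as a factor, Clock (0.17, limma adjusted p = 5.66e-05) and Arntl (0.45, limma adjusted p = 0.00782) were higher in SD mice, where 7.50% of probe sets passed. In the same model without the 16 arrays, Npas2 (0.39, limma adjusted p = 1.37e-07), Clock (0.20, 9.28e-07), Arntl (0.46, 3.49e-06) and Rora (0.13, 0.00151) were higher, 4 of 5 where 11.1% passed, and Nr1d2 differed by −0.06 (0.298).

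Hour by hour, and as labelled, none of the 20 differences passed in limma, with 6 at an unadjusted p under 0.05. The shares of all probe sets passing at 3, 6, 9 and 12 h were 6.11%, 0.0591%, 2.56% and 0.0816%. Over the 62 arrays, 8 of 20 passed, each higher in SD mice, where the shares were 7.54%, 2.51%, 5.98% and 0.442%. The 8 comprised 3 for Npas2, 2 for Clock, 2 for Rora and 1 for Arntl.

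Arntl differed most at 12 h. In the 62 arrays it had a lowest, median and highest value of 6.25, 6.54 and 7.51 in SD mice, against 5.45, 5.75 and 6.05 in SS mice, so that the ranges did not meet. They did not meet as labelled either, with 6.22 as the highest SS value. The difference was 0.87 (SE 0.13, limma adjusted p = 5.55e-05) without the 16 arrays and 0.86 (SE 0.30, limma adjusted p = 0.303) with them. At 6 h it was 0.50 (SE 0.13, limma adjusted p = 0.0122), which passed without any 1 of arrays 8, 27, 48, 49 and 76.

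Npas2 was higher in SD mice at 6, 9 and 12 h of the 62 arrays. At 6 h the lowest, median and highest values were 7.56, 7.84 and 8.02 in SD mice, against 7.13, 7.24 and 7.40 in SS mice. These ranges were apart, and the difference was 0.58 (SE 0.10, limma adjusted p = 3.57e-05). At 12 h the difference was 0.54 (SE 0.10, limma adjusted p = 0.000607), with ranges of 6.66 to 7.20 in SD mice and 6.18 to 6.73 in SS mice that overlapped. At 9 h, 0.33 (SE 0.09, limma adjusted p = 0.00961) was lost without any 1 of 38 mice, with a limma adjusted p of up to 0.0276.

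Clock was higher in SD mice at 9 h and 12 h. In the 62 arrays the 9 h values were 10.10, 10.18 and 10.24 (lowest, median and highest) in SD mice, against 9.86, 9.94 and 10.01 in SS mice. At 12 h they were 9.98, 10.16 and 10.25 in SD mice, against 9.69, 9.83 and 9.93 in SS mice. Neither pair of ranges met. The differences were 0.24 (SE 0.05, limma adjusted p = 0.00121) at 9 h and 0.30 (SE 0.06, limma adjusted p = 0.00174) at 12 h, and as labelled 0.16 (0.130) and 0.27 (0.0687).

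Rora was higher in SD mice at 3 h and 9 h. In the 62 arrays the 3 h values were 9.75, 9.89 and 9.97 (lowest, median and highest) in SD mice, against 9.27, 9.65 and 9.79 in SS mice, and the ranges overlapped. At 9 h they were 10.01, 10.11 and 10.22 in SD mice, against 9.70, 9.94 and 9.99 in SS mice, and did not. The differences were 0.26 (SE 0.05, limma adjusted p = 0.000580) at 3 h and 0.20 (SE 0.05, limma adjusted p = 0.00698) at 9 h, of which the second was lost without any 1 of 10 mice (up to 0.0396, without array 29). As labelled the 3 h difference was 0.18 (limma adjusted p = 0.0276), and it passed without array 61 (0.00783). Nr1d2 differed between the states by −0.14 to 0.09 over the 4 hours of the 62 arrays, and by −0.21 to −0.01 as labelled, and passed at none.

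**Figure D3:**
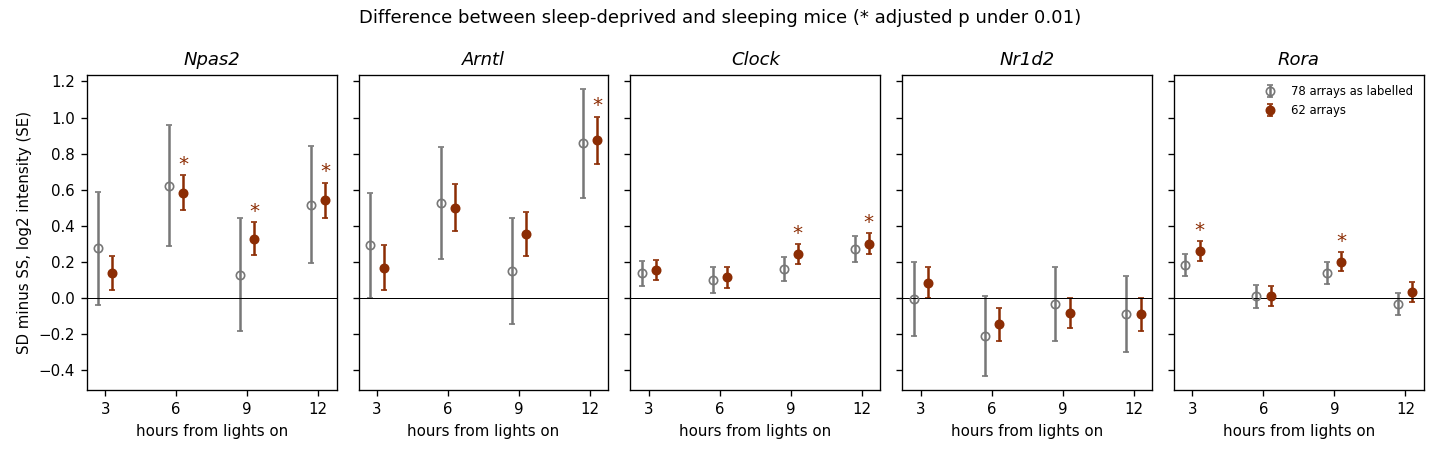
Difference between SD and SS mice in log2 intensity at 3, 6, 9 and 12 h from lights on, with bars of 1 SE, for the 78 arrays as labelled (open) and the 62 arrays (filled), and a star where the limma adjusted p is under 0.01. Stars stand over filled points only, and the highest is Arntl at 12 h (0.87).

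Whether the difference changed over the hours was tested in the same fit with limma's F test. None of the 5 genes passed as labelled (1, Rora, at an unadjusted p under 0.05), where 0.0562% of probe sets did. None passed without the 16 arrays either (3 at an unadjusted p under 0.05), where 0.906% did. The limma adjusted p over the 62 arrays was 0.0519 for Arntl, 0.0713 for Rora, 0.0786 for Npas2, 0.332 for Clock and 0.533 for Nr1d2. A difference that passed at 1 hour and missed the threshold at another was therefore not shown to differ between the hours.

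The state differences were also taken within the runs of array numbers, which split each hour in 2. In the run of arrays 36 to 66, those up to 51 held baseline and SD mice and those from 52 on held baseline and SS mice, so the 3 h and 6 h differences there set SD and SS mice from separate stretches of numbers side by side. As labelled, treating these stretches as 2 runs, with 5 runs as a block, left the calls by hour at 0 of 20, as without the block. Arntl then differed by 0.51 at 3 h and 0.80 at 6 h (0.29 and 0.53 without the block), Npas2 by 0.45 at 3 h (0.28), and Clock by 0.23 and 0.21 (0.14 and 0.10). This block was not fitted without the 16 arrays, so the calls by hour made there were not tested against it. Over the 8 differences within the 4 runs, as labelled, Clock was higher in SD mice in 8 (0.05 to 0.33), Arntl in 7 (−0.14 to 0.99), Npas2 in 7 (−0.04 to 0.91), Rora in 5 (−0.06 to 0.23) and Nr1d2 in 2 (−0.29 to 0.24). Without the 16 arrays the counts were 8 for Clock, 8 for Arntl, 7 for Npas2, 6 for Rora and 1 for Nr1d2.

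The study's second step asks for a trend over the light phase, in baseline and SS mice, among the probe sets that pass the comparison of states. None of the 5 genes reached it, as none passed that comparison. Adjusted over all probe sets, all 5 had a slope that passed, where 5.44% of probe sets did, with a fitted change over 12 h of −3.43 (SE 0.30) for Arntl, −3.43 (SE 0.33) for Npas2, −0.65 (SE 0.07) for Clock, 2.02 (SE 0.23) for Nr1d2 and 0.41 (SE 0.06) for Rora. Over the 62 arrays the same 5 passed, where 6.15% of probe sets did, with −4.02, −4.03, −0.80, 2.44 and 0.42 in the same order. With the 4 runs as a block, over the 78 arrays, the fitted changes were −2.41 (SE 0.66) for Arntl, −2.93 (SE 0.74) for Npas2, −0.39 (SE 0.16) for Clock, 2.48 (SE 0.51) for Nr1d2 and 0.31 (SE 0.13) for Rora. They kept their direction, with SEs larger than those without the block. None of the 5 passed in limma (all 5 at an unadjusted p under 0.05, adjusted p from 0.0903 for Nr1d2 to 0.525 for Clock), and with this block 0% of all probe sets passed.

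The log2 intensity of Clock fell by less than that of Npas2 or Arntl. Whether their probe sets respond alike to a change in RNA was not tested, and run and hour cannot be told apart here. Within each mouse the difference of 2 log2 values was taken, and its change at 12 h against baseline was tested over mice in 6 tests. Npas2 minus Clock changed by −2.19 (SE 0.30) in SD mice and by −2.43 (SE 0.30) in SS mice (exact two-sided permutation test, Benjamini-Hochberg p = 0.000658 and 0.000617). Arntl minus Clock changed by −1.87 (SE 0.36) in SD mice and −2.46 (SE 0.32) in SS mice (exact two-sided permutation test, Benjamini-Hochberg p = 0.00130 and 0.000617). The changes were −2.49, −2.73, −2.25 and −2.82 without the 16 arrays. Each had an exact two-sided permutation p of 0.000583 before adjustment, the smallest that this number of mice can give. These 4 passed at 0.01, and Npas2 minus Arntl did not in either state. In SD mice it changed by −0.31 (SE 0.15, exact permutation test, Benjamini-Hochberg p = 0.0157) as labelled, and by −0.24 (SE 0.19, 0.150) without the 16 arrays. In SS mice it changed by 0.03 (SE 0.07, exact permutation test, Benjamini-Hochberg p = 0.734), and by 0.09 (SE 0.08, 0.287) without the 16 arrays.

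Mice of the same group were then compared with each other. Deviations of each mouse from its group mean were correlated over all mice for the 10 pairs of genes, with 100000 permutations within groups (two-sided) and Benjamini-Hochberg adjustment. As labelled, 8 pairs passed at 0.05, led by Arntl with Npas2 (Pearson r = 0.93, Spearman rho = 0.87), Npas2 with Nr1d2 (r = −0.91, rho = −0.86) and Arntl with Nr1d2 (r = −0.87, rho = −0.79), each at the smallest p these permutations can give (1e-05). The 4 mice farthest from their group means for Arntl, Npas2 and Nr1d2 were those of arrays 36, 51, 61 and 66, all among the 16. Without the 16 arrays, 5 pairs passed. Pairs of other genes were not correlated, so whether these counts are particular to the 5 genes was not tested.

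Over the 62 arrays Npas2 and Nr1d2 deviated in opposite directions (r = −0.59, permutation p = 0.0001 after adjustment, rho = −0.56), with r = −0.53 without the 2 mice farthest out. Arntl and Npas2 deviated together (r = 0.52, permutation p = 0.0003 after adjustment, rho = 0.58), with r = 0.60 without the 2 farthest mice and 0.10 to 0.81 within the 4 runs. Arntl and Nr1d2 had r = −0.32 (permutation p = 0.0037 after adjustment, rho = −0.38), and −0.34 without the 2 farthest mice. Clock and Rora had r = 0.59 (permutation p = 0.0037 after adjustment, rho = 0.35), and 0.32 without the 2 farthest mice, one of them array 76 (3 h SS), low for both genes at 9.86 and 9.27. Within the 4 runs that pair had r of −0.01 to 0.92. Npas2 and Clock had r = 0.30 (permutation p = 0.044 after adjustment, rho = 0.36), and Arntl and Clock r = 0.28 (permutation p = 0.082 after adjustment, rho = 0.32).

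**Figure D4:**
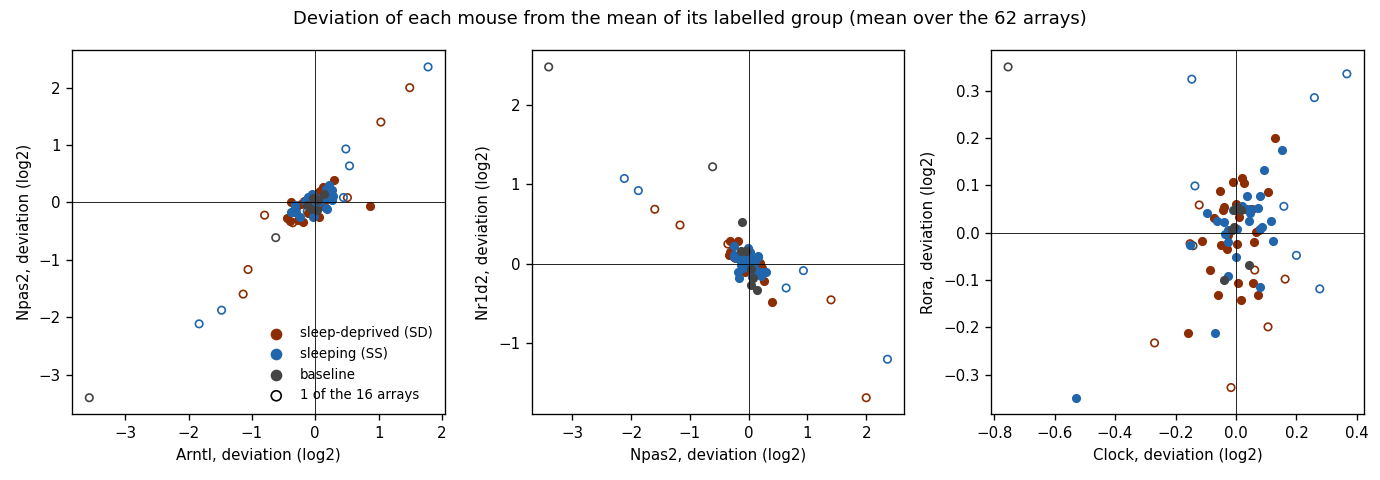
Deviation of each mouse from the mean of its labelled group, the mean being over the 62 arrays, in log2 intensity, for Npas2 against Arntl, Nr1d2 against Npas2 and Rora against Clock, with SD, SS and baseline mice in colour and open points for the 16 arrays. Among the filled points r is 0.52, −0.59 and 0.59 in the 3 panels.

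The spread between mice over the hours of sleep was compared with Bartlett's test and the Brown-Forsythe test over baseline and SS mice. No gene of the 5 passed both (Bartlett adjusted p under 0.01 and Brown-Forsythe p under 0.01), where 0.112% of probe sets did as labelled and 0.0281% without the 16 arrays. Bartlett's test alone gave an adjusted p of 8.08e-06 for Nr1d2, 0.00378 for Npas2 and 0.00723 for Arntl as labelled, whose baseline standard deviations of 0.91, 1.13 and 1.18 held array 36. Without the 16 arrays these were 0.30, 0.10 and 0.09, and only Clock passed Bartlett's test (adjusted p = 0.000409), with a standard deviation of 0.24 at 3 h of sleep that held array 76 and 0.03 at baseline. The share of all probe sets that pass Bartlett's test alone was not counted, and the shares above are for both tests together. Whether the calls of Bartlett's test alone are particular to these genes was therefore not tested.

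The genes most like each of the 5 were sought among 12315 genes of a mean log2 intensity of 6 or more, by Pearson correlation over the 78 arrays, and again over the 62. This describes levels that differ between the hours, and with them the runs, over all groups, and it carries no test. For Arntl they were Npas2 (0.98), Ccnjl (0.97) and Tmem171 (0.96), and the most opposite were Per3 (−0.98), Hlf (−0.97) and Tspan4 (−0.95). For Npas2 they were Arntl (0.98), Tmem171 (0.98) and Dtx4 (0.97), with Per3 (−0.98), Hlf (−0.97) and Tspan4 (−0.93) opposite. The list for Clock was Fam124b (0.90), Arntl (0.89) and Leo1 (0.88), with Mthfd1l (−0.90), Tspan4 (−0.88) and Hlf (−0.87) opposite. Over the 62 arrays the same 3 genes led on each side for Arntl and Npas2. For Clock 2 of 3 were shared on each side, with Ahcyl2 (0.88) in place of Leo1 and Rac3 (−0.89) in place of Hlf.

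Nr1d2 was most like Per3 (0.89), Pfkfb3 (0.89) and D930020B18Rik (0.87) and most opposite to Npas2 (−0.92), Dtx4 (−0.89) and Tmem171 (−0.89). Rora kept other company, with Abca8a (0.91), Gria3 (0.90) and Pgm2l1 (0.90) above and Gyg (−0.88), Tmem108 (−0.86) and Smyd5 (−0.84) opposite. Rora correlated with the other 4 genes at −0.71 for Arntl, −0.69 for Npas2, −0.45 for Clock and 0.66 for Nr1d2. Over the 62 arrays the same 3 genes led on each side for Rora, whose correlations with Arntl, Npas2, Clock and Nr1d2 were −0.70, −0.69, −0.43 and 0.68. For Nr1d2, Per1 (0.87) then stood in place of D930020B18Rik and Glipr2 (−0.90) in place of Tmem171.

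For comparison, 20 other clock genes with a probe set of their own were followed. At 12 h against baseline, 11 of the 20 rose and 1 (Nfil3) fell as labelled in SD mice, and as many in SS mice. Of all probe sets, 3.54% passed there in SD mice and 4.17% in SS mice. The median change of the 20 genes was 0.65 in SD mice and 0.68 in SS mice. Without the 16 arrays 12 rose and 1 fell in each state, where 6.45% of probe sets passed in SD mice and 6.85% in SS mice. Run and hour cannot be told apart in these changes. Among the repressors, Per3 rose by 1.76 in SD mice (limma adjusted p = 1.00e-07) and by 2.10 in SS mice (1.53e-11), and Cry2, which binds the CLOCK and BMAL1 complex, by 0.69 and 0.86.

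Among the D-box output factors, Hlf rose by 1.28 in SD mice and 1.57 in SS mice, and Tef by 1.21 and 1.40. Usp2, a deubiquitinating enzyme, rose by 0.99 and 1.37 in SD and SS mice. Arntl2, the paralogue of Arntl, changed by 0.20 (SE 0.07) in SD mice and 0.07 (SE 0.07) in SS mice, and Rorb by −0.13 and −0.06 (SE 0.07 and 0.06), and neither passed. Over all hours, 2 of the 20 passed between the states, where 5.59% of all probe sets did, both lower in SD mice, Bhlhe41 (−0.59, limma adjusted p = 0.00412) and Fbxl21 (−0.27, limma adjusted p = 4.36e-06), and without the 16 arrays 1 passed (Fbxl21), where 8.63% did. Npas2 and Arntl had the largest changes at 12 h of these clock genes, in either direction, in both states and with or without the 16 arrays.

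**Figure D5:**
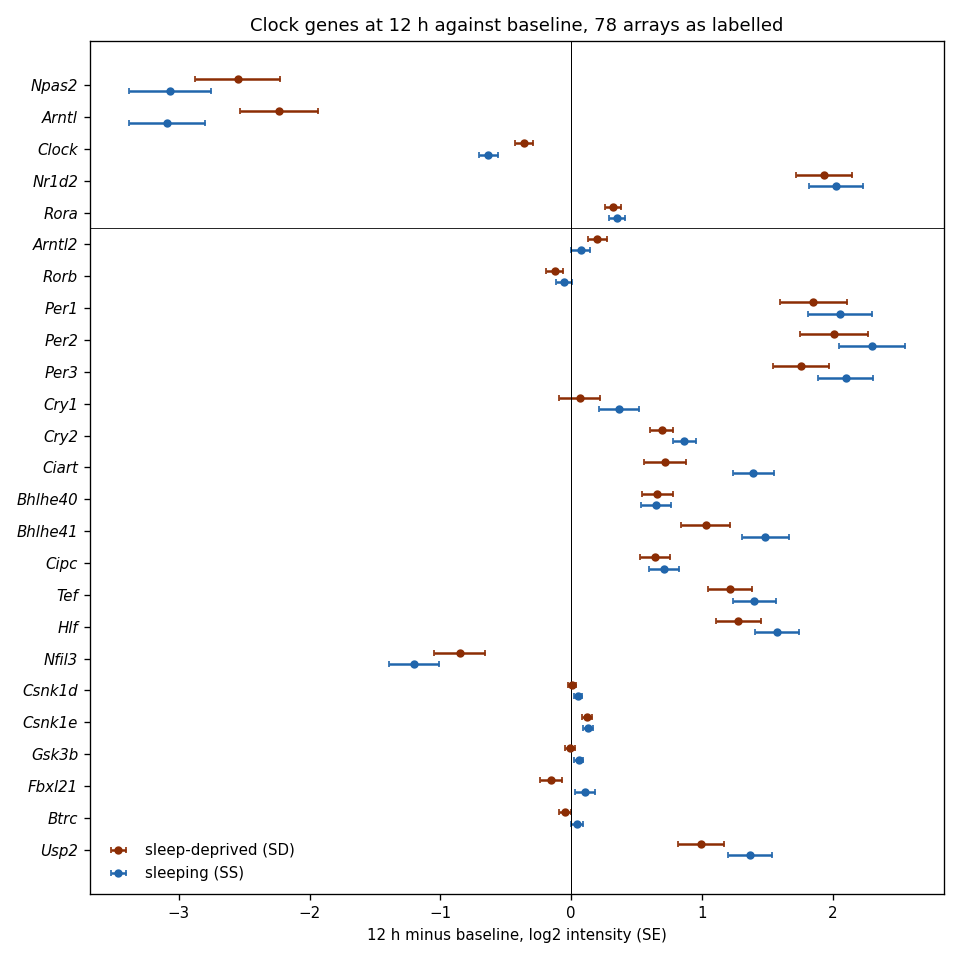
Change at 12 h against baseline in log2 intensity with bars of 1 SE, for the 5 genes (above the line) and the 20 other clock genes (below), with SD mice above SS mice in each pair, 78 arrays as labelled. Npas2 and Arntl lie at −2.55 and −2.24 in SD mice and at −3.07 and −3.09 in SS mice, while Nr1d2 lies with Per1, Per2 and Per3 on the right.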

How the data were processed

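Total lung RNA of 78 mice was measured on 78 arrays. The values the authors deposited are log2 intensities of 35556 probe sets, summarised and normalized together by RMA in R/oligo (a tool version is not given in the sources used here). Their decimal point was missing and was restored (2 digits before it where a value began with 1, and 1 digit otherwise), which gave values of 2.27 to 13.85. The deposited unit was therefore entered as other, and no further normalization was applied.

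The members and lists were chosen with earlier results of these data known. The 5 genes were fixed by name, and other clock genes were named by role, at most 2 per role by smallest adjusted p. Groups, steps and slopes were tested over all probe sets in limma 3.58.1 (R 4.3.3), and spreads with Bartlett's test, with Benjamini-Hochberg adjustment and a threshold of 0.01. The Brown-Forsythe test of spread used an unadjusted p at the same threshold. Hours, steps and the F test came from 1 fit of 9 group means. The scripts were tested on simulated data. Permutation tests on the 5 genes alone were adjusted within their 6 tests of unequal change (exact, threshold 0.01) and their 10 pairs (100000 permutations, threshold 0.05). Alternatives were 4 or 5 runs of array numbers as a block, array weights, arrays centred on their medians, a mean of 6 or more, trended and robust variances, time as a factor, other slope models, the other Nr1d2 probe set, group medians, and leaving out the 16 arrays or each mouse. Of these, runs as a random block, the combinations with the 16 arrays left out, and leaving out each of the 62 mice were chosen after seeing the data. The slope test with a common intercept adds the SD mice, as the study's formula does.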

Additional observations from a re-analysis of the deposited data

Results flagged for a closer look

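In 10 of 45 sets of values (5 genes in 9 groups of mice), 1 mouse stood apart from the rest of its group by Dixon's criterion at 95%, where chance marks about 5% of sets. The 5 genes were measured in the same mice, so the marks are not independent of each other. Array 36, labelled baseline, stood apart for 4 genes, with 5.80 for Arntl, 6.54 for Npas2, 9.86 for Clock and 10.03 for Rora. Array 66, labelled 6 h SS, stood apart for 3 genes, with 9.04 for Arntl, 9.61 for Npas2 and 8.94 for Nr1d2. Array 20, labelled 9 h SD, had an Arntl value of 5.58, and array 51, labelled 6 h SD, an Nr1d2 value of 8.32. These 9 marks lie on arrays of doubtful condition. The other mark is array 76, a 3 h SS mouse outside the 16, with a Clock value of 9.86.

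Without the 16 arrays, 4 of 45 sets held such a mouse. Array 76 stood apart for Clock (9.86) and Rora (9.27). Array 80, a 6 h SS mouse, stood apart for Nr1d2 (10.25), and array 29, a 9 h SS mouse, for Rora (9.70). No reason for these values was tested.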

How the results depend on the processing

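At 12 h against baseline, all 5 genes passed in both states under every alternative that gave a value, except that the other Nr1d2 probe set did not pass. Fixed run blocks gave no value there or from 6 h to 9 h. Leaving out the 16 arrays moved calls most, to 8 of 20 between the states by hour, to 5 of 15 steps in SD mice and 5 of 15 in SS mice outside 6 h to 9 h, and to 3 of 5 in SS mice from 6 h to 9 h, and to 5 of 10 correlated pairs (8 as labelled). The cause of these changes was not tested. Over all hours, 1 gene (Clock) passed with 4 or 5 runs as a block, with 4 runs as a random block, with array weights or at a mean of 6 or more, 2 passed with time as a factor and 4 with time as a factor without the 16 arrays, and leaving out each mouse gave 0 to 1. Of all 35556 probe sets, 2791 and 2309 passed there with 4 and 5 runs, 2458 with a random block and 3210 with array weights. At a mean of 6 or more, 2022 of 20704 did. With none of these changes, 1987 of 35556 passed. By hour, 1 of 20 passed with array weights (Clock at 12 h) or with centred arrays (Rora at 3 h), and leaving out each mouse gave 0 to 1. At those hours 410 of 35556 probe sets passed with array weights and 2213 with centred arrays. Of 15 SS steps, 1 passed with array weights, centred arrays or a mean of 6 or more (Nr1d2 to 3 h), and leaving out each mouse gave 0 to 1. To 3 h, 17 of 35556 probe sets passed with array weights, 7 with centred arrays, and 7 of 20704 at a mean of 6 or more. From 6 h to 9 h in SS mice, 2 passed at a mean of 6 or more and 0 with a random block, and leaving out each mouse gave 0 to 2. There 272 of 20704 probe sets passed at a mean of 6 or more and 154 of 35556 with a random block. Of 15 SD steps, 2 passed with array weights and 0 with the other Nr1d2 probe set. With array weights, 1753, 423 and 953 of 35556 probe sets passed from 0 h to 3 h, 3 h to 6 h and 9 h to 12 h. Slopes adjusted over all probe sets passed in 5 of 5 genes, also without the 16 arrays, and in 0 with 4 runs as a block. Differences that did not pass changed sign for Nr1d2 at 3 h (0.002644 with 5 runs, 0.002324 with centred arrays, 0.08513 without the 16 arrays, −0.07556 to 0.1003 without 1 mouse), Rora at 6 h (−0.01774 to 0.02551 without 1 mouse) and Rora at 12 h (0.03404 without the 16 arrays, −0.05422 to 0.004756 without 1 mouse). No paired analysis was possible because the replicate numbers follow the order of deposit and pair no mice.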
